A study of Mus musculus with 6 samples.

Results

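The 10 receptor chains through which natural killer (NK) cells and innate lymphoid cells (ILCs) take up signals from interleukins were followed across intestine, skin and spleen. The set holds the chains of the common gamma chain family (Il2ra, Il2rb, Il2rg, Il4ra, Il7r, Il15ra and Il21r), both chains of the IL-12 receptor (Il12rb1 and Il12rb2) and the ligand-binding chain of the IL-18 receptor (Il18r1). Every probe that carries the symbol of 1 of these genes was taken, whatever its values, which gave 23 of the 46643 probes on the array for 10 genes.

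The series profiled cells sorted as CD45+ and NKp46+ without CD3, with a further marker that the labels spell NK11+. The groups were intestine (lamina propria), skin and spleen, with 2 arrays each and 6 arrays in all. All 3 groups came from 12-week-old male C57BL/6 mice of the RAG-2-KO strain, which make no T or B cells, so that the cells were seen in hosts without adaptive lymphocytes. Nothing in the labels says whether the 2 samples of a tissue came from separate mice or from pools, so each p-value reflects the spread between samples that may be technical repeats.

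Receptors of this kind are built from shared and private chains. The common gamma chain (Il2rg) pairs with a private chain for IL-4, IL-7 and IL-21, and with the beta chain Il2rb for IL-2 and IL-15, whose affinity or presentation is set by the alpha chains Il2ra and Il15ra. Signals pass through the kinases JAK1 and JAK3 to STAT factors. IL-15 keeps NK cells alive, IL-7 is the survival factor of many ILCs, and IL-12 acts with IL-18 to make NK cells release interferon-gamma, through STAT4 on the IL-12 side and MyD88 and NF-kappaB on the IL-18 side.

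Values per array are the deposited bead signals, which had been scaled to the same mean on each array. Differences are on the log2 scale after quantile normalization of log2(signal + 16), so they do not equal ratios of the signals and understate the change of dim probes. Each is given ± its standard error from a limma fit on all 6 arrays, and p-values carry a Benjamini-Hochberg adjustment across the 18583 probes that were detected on both arrays of at least 1 tissue. A difference passed at an adjusted p under 0.05. A gene with several probes is represented by the brightest of them. Signals of different probes are not set against each other, since probes differ in brightness.

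Between 15279 and 16549 probes were detected on the intestine arrays, between 15196 and 16477 on the skin arrays, and 18266 and 18530 on the spleen arrays. Across probes, which are not independent replicates, the 2 arrays of a tissue correlated at 0.984 for intestine, 0.989 for skin and 0.995 for spleen. The array names place replicate I of every tissue on slide 1 and replicate II on slide 2. Cd3e, the chain that the sort excluded, was detected on none of the 6 arrays, and Ncr1, the gene of NKp46, on all 6. Ptprc, the gene of CD45, was detected on all 6 as well. Ncr1 was dim in intestine, at 10.8 and 14.7, against 88.2 and 52.9 in spleen. Klrb1c, which encodes the NK1.1 antigen, had 978 and 1073 in intestine, 2125 and 2003 in skin and 2311 and 2071 in spleen.

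All 23 probes entered the test, 16 of them detected on all 6 arrays and 4 of them through the intestine arrays alone. Those 4 were the 3 Il2ra probes and the dimmer Il21r probe. Il2ra is counted below among the genes higher in intestine, although the detection filter came close to setting its direction. Between intestine and spleen 6 of the 10 genes were higher in intestine, 1 was lower and 3 did not pass, while 47.5% of all probes passed, 19.9% higher and 27.6% lower. The median difference of the 10 genes was 1.22, against -0.07 over all probes, and 6 of the genes passed with a difference of at least 2-fold, against 13.2% of all probes. Between skin and spleen 1 gene was higher, 2 were lower and 7 did not pass, where 22.9% of all probes passed, 10.8% higher and 12.1% lower, and 0 of the 3 called differences reached 2-fold, against 2.46% of all probes. At an unadjusted p under 0.05, limma put 2 genes higher and 2 lower. The median difference of the 10 genes was -0.08 here, against -0.04 over all probes. Between intestine and skin 5 genes were higher, 1 was lower and 4 did not pass, where 36.2% of all probes passed, 16.7% higher and 19.5% lower, with medians of 1.27 for the genes and -0.05 for all probes. Intestine and skin were each compared with the same 2 spleen arrays, so those 2 comparisons are not independent.

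**Figure D1:**
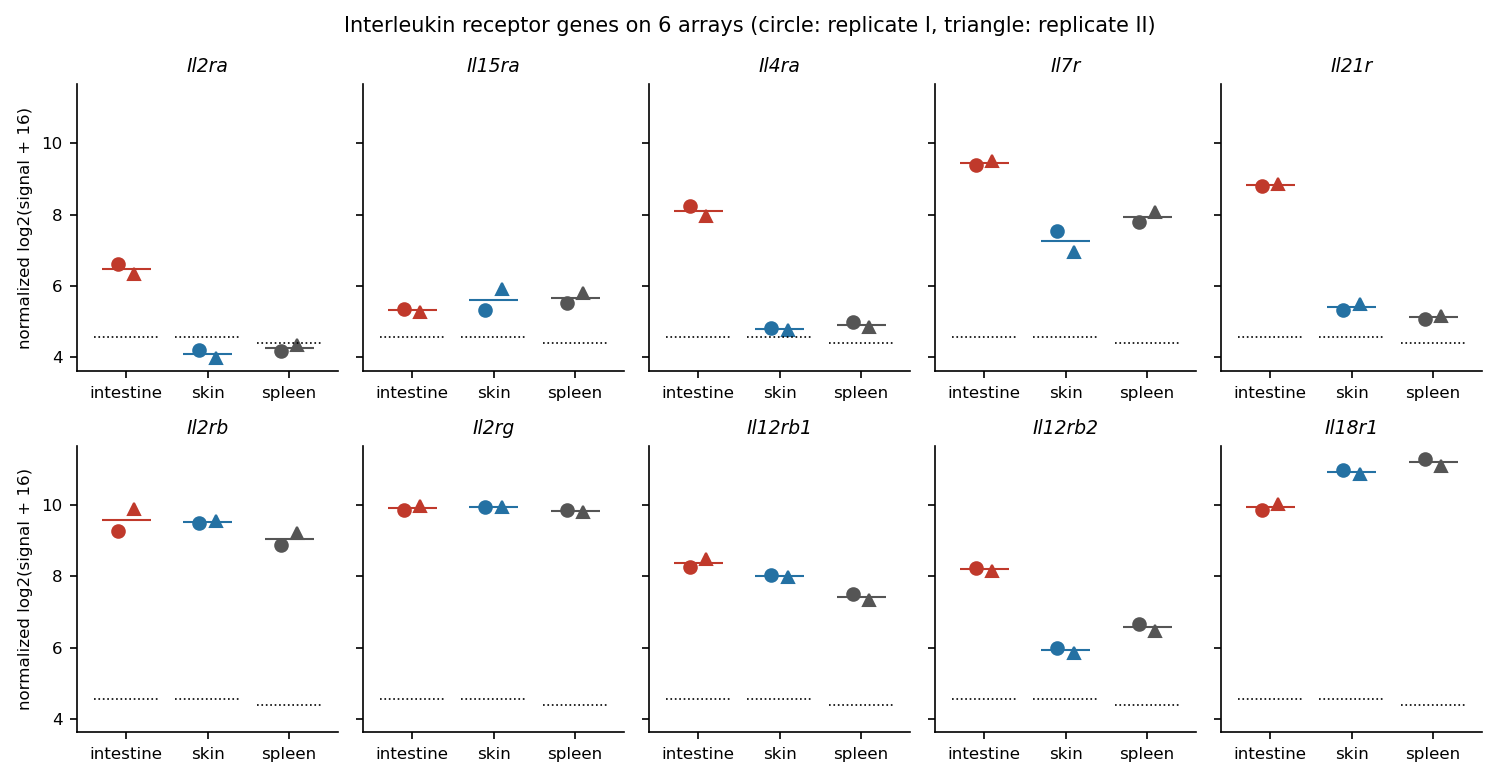
Normalized log2 level (vertical axis) of the brightest probe of each of the 10 receptor genes on the 2 arrays of intestine, skin and spleen. Circles are replicate I, triangles replicate II, short lines the mean of a tissue, and dotted lines the lowest level of a detected probe. Both intestine arrays lie above all 4 others for Il2ra, Il4ra, Il7r, Il21r, Il12rb1 and Il12rb2, and below them for Il18r1.

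Among the private chains of the gamma chain family, 4 of 5 were higher in intestine than in skin and spleen. Il21r, which binds IL-21, had 410.2 and 402 on the intestine arrays, 24.1 and 28 on the skin arrays and 20.8 and 23.1 on the spleen arrays. Intestine stood clear of both other tissues, 13.1-fold above spleen (3.71 ± 0.14, adjusted p = 2.02e-07) and 10.6-fold above skin (3.41 ± 0.14, adjusted p = 2.95e-07). Skin lay just above spleen without passing the test (0.29 ± 0.14, adjusted p = 0.133). The dimmer Il21r probe gave 56.0 and 39.8 in intestine and was detected on no skin or spleen array, so that it sets only a bound, of at least 3.06-fold over skin and at least 3.44-fold over spleen.

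Il4ra, the ligand-binding chain for IL-4 that is also part of the IL-13 receptor, had 261 and 206 on the intestine arrays, 14.1 and 11.7 on the skin arrays and 18.2 and 13.0 on the spleen arrays. Skin and spleen overlapped by deposited signal, while after normalization both skin arrays lay just below both spleen arrays. Intestine was 9.90-fold above skin (3.31 ± 0.15, adjusted p = 4.82e-07) and 9.11-fold above spleen (3.19 ± 0.15, adjusted p = 4.23e-07). The skin minus spleen difference of Il4ra was -0.12 ± 0.15, with an unadjusted 95% interval of -0.45 to 0.21, and its sign turned with median scaling (0.02).

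Il2ra, the alpha chain CD25 that turns the IL-2 receptor into its high-affinity form, was measured in intestine alone. Its brightest probe had 70.5 and 53.9 on the intestine arrays, 3.08 and -0.266 on the skin arrays and 1.59 and 3.79 on the spleen arrays, and was detected on the 2 intestine arrays only. The intestine signals were at least 3.75-fold above skin (2.38 ± 0.16, adjusted p = 3.68e-06) and at least 4.22-fold above spleen (2.22 ± 0.16, adjusted p = 4.24e-06). All 3 Il2ra probes entered the test through the intestine arrays alone, so the p-values are no independent test of the direction. Both other Il2ra probes were higher in intestine in both comparisons too, by 1.57 and 1.20 over spleen, and a single spleen array detected 1 of them at 6.42. Signals this near the background give no order between skin and spleen.

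Il7r, the IL-7 receptor alpha chain that marks many ILCs, was the only member of the family that differed in all 3 comparisons. It had 643 and 656 on the intestine arrays, 166 and 107 on the skin arrays and 244 and 292 on the spleen arrays, with no overlap between tissues. Intestine was 4.54-fold above skin (2.18 ± 0.19, adjusted p = 2.22e-05) and 2.83-fold above spleen (1.502 ± 0.19, adjusted p = 0.00019). Skin was 1.60-fold below spleen (-0.68 ± 0.19, adjusted p = 0.0333). That last difference was -0.26 on slide 1 and -1.10 on slide 2, and its call ended without skin replicate 2 (adjusted p = 0.162), without spleen replicate 1 (0.109), without spleen replicate 2 (0.223), with an offset of 1 in place of 16 (0.125) or with no detection filter (0.0636). All 4 Il7r probes were higher in intestine than in spleen, by 1.33 to 1.61, and all 4 were lower in skin than in spleen, by -0.23 to -0.94, of which 2 passed.

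Il15ra, the chain with which neighbouring cells present IL-15 to NK cells, went the other way where it moved at all. Its brightest probe had 20.7 and 19.6 on the intestine arrays, 23.8 and 43.3 on the skin arrays and 37.2 and 48.5 on the spleen arrays, so that skin overlapped spleen. The intestine minus spleen difference was -0.33 ± 0.20 (adjusted p = 0.185, 95% interval -0.77 to 0.11), and it passed only with the deposited scaling left as it was (-0.70, adjusted p = 0.00799). Another of the 4 Il15ra probes was lower in intestine than in skin (-0.65 ± 0.18, adjusted p = 0.0159) and than in spleen (-0.52 ± 0.18, adjusted p = 0.0348), from signals of 9.88 and 4.39 in intestine, 21.8 and 20.1 in skin and 24.7 and 17.4 in spleen. The call of this probe against spleen held in 6 of 15 alternatives. It ended with offsets of 1 (adjusted p = 0.1) and 50 (0.068), median scaling (0.0515), no filter (0.0731) and only those tissues fitted (0.0508). It also ended without intestine replicate 2 (0.165), skin replicate 1 (0.0527), spleen replicate 1 (0.234) or spleen replicate 2 (0.0893), and the value ran from -1.23 to -0.23. Its call against skin ended with an offset of 1 (0.0819) and without intestine replicate 2 (0.0589), skin replicate 1 (0.0766) or skin replicate 2 (0.0622). Il15ra lies beside Il2ra on chromosome 2, and the intestine minus spleen differences of these neighbours had opposite signs.

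**Figure D2:**
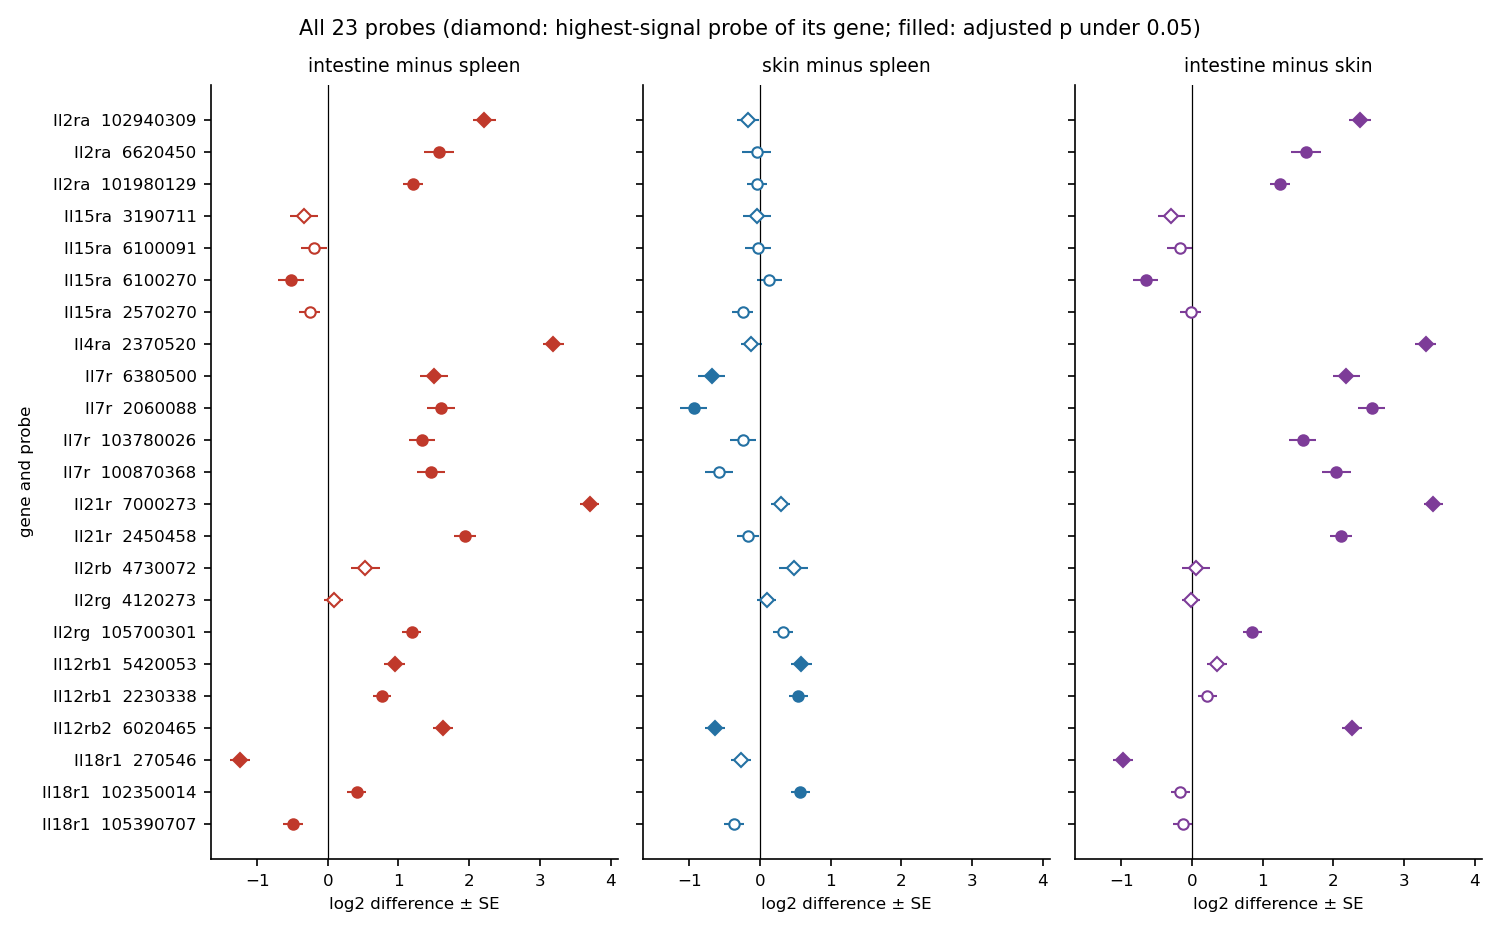
Log2 difference ± standard error (horizontal axis) of each of the 23 receptor probes for intestine minus spleen, skin minus spleen and intestine minus skin, with 2 arrays per tissue. Diamonds mark the probe that represents a gene and filled symbols an adjusted p under 0.05. All probes of Il2ra, Il7r and Il21r lie right of 0 in both comparisons with intestine, while the probes of Il18r1 lie on both sides of 0 for intestine minus spleen.

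The promoter stretches are shown for the 5 genes whose brightest probe passed as higher in intestine than in both skin and spleen. Each line gives the 250 bases before the annotated start, taken from RefSeq (build GRCm38.p6) and written in the direction of transcription. They lie at chr7:125603179-125603428 (+) for Il21r, chr7:125552021-125552270 (+) for Il4ra, chr2:11642542-11642791 (+) for Il2ra, chr15:9529877-9530126 (-) for Il7r and chr6:67376189-67376438 (-) for Il12rb2. Capitals mark matches to the motifs searched on both strands.
Il21r: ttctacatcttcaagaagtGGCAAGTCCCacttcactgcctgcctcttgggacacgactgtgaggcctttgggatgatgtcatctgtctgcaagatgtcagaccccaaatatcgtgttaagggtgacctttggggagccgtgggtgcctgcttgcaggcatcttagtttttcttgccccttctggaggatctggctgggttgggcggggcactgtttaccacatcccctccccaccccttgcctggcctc
Il4ra: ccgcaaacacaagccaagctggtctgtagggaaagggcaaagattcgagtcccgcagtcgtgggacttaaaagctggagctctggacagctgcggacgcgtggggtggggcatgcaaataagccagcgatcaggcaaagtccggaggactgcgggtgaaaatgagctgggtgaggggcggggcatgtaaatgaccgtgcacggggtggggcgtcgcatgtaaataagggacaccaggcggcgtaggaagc
Il2ra: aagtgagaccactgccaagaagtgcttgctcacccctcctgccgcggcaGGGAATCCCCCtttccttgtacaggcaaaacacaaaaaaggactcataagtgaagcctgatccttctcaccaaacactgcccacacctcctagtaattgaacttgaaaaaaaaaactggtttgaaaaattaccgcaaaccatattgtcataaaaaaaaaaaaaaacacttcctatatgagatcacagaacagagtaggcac
Il7r: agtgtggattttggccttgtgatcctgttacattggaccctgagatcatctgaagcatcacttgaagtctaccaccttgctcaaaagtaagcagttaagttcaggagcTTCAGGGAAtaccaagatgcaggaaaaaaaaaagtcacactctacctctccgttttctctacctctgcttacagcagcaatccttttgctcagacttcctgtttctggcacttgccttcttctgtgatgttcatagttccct
Il12rb2: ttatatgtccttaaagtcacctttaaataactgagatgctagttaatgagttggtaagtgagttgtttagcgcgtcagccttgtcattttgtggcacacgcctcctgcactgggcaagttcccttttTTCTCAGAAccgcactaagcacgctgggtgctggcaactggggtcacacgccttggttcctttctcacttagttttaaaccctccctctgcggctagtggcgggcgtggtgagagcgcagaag

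The motifs were TTCNNNGAA, the core that STAT dimers bind, GGG and CC with any 5 bases between them for NF-kappaB, TGANTCA for AP-1, TGACGTCA for the cyclic AMP response factors and AGGTGTGA for T-box factors. The stretches of Il7r and Il12rb2 each held the STAT core once, at positions -142 and -123 counted from the start, and 7.02% of the 32851 mouse promoters of the same length hold it. The Il2ra stretch held overlapping NF-kappaB matches at positions -201 and -200, and the Il21r stretch 1 such match at -231, a motif found in 45.8% of promoters. The Il4ra stretch held none of the 5 motifs. AP-1 is in 6.75% of promoters, the cyclic AMP motif in 1.55% and the T-box motif in 1.12%, and none of the 3 was in these 5 stretches. Among the genes not shown is Il18r1, whose brightest probe was lower in intestine. The stretch before 1 of its 3 annotated starts held the STAT core at -219 and -152 and an NF-kappaB match at -58. The stretch before 1 of 2 starts of Il15ra held an AP-1 match at -30 and an NF-kappaB match at -102. The RefSeq table matched 8 of the 10 genes and does not list Il2rb and Il12rb1. A match is a description of the letters and says nothing about binding.

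Il21r and Il4ra are neighbours on chromosome 7, and the genes on either side of the pair were looked at after the values of the pair had been seen. Nsmce1, a subunit of the SMC5/6 DNA repair complex next to Il4ra, had 409 and 456 in intestine, 427 and 443 in skin and 413 and 423 in spleen. Its intestine minus spleen difference was 0.31 ± 0.14 (adjusted p = 0.0889). Gtf3c1, an RNA polymerase III factor on the other side of Il21r, had 0.02 ± 0.13 (adjusted p = 0.911), while its other probe gave 0.76. The pair thus lay between genes whose brightest probes did not pass. Rbm17, the outer neighbour of Il2ra, had an intestine minus spleen difference of 0.08 ± 0.13 (adjusted p = 0.62). Fbh1, the outer neighbour of Il15ra, had -0.32 ± 0.15 (adjusted p = 0.103), where Il15ra did not pass either. Rbm17 was higher in intestine than in skin (0.50 ± 0.13, adjusted p = 0.0134), as Il2ra was, and lower in skin than in spleen (-0.42 ± 0.13, adjusted p = 0.0458). Fbh1 was lower in intestine than in skin (-0.47 ± 0.15, adjusted p = 0.0311).

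**Figure D3:**
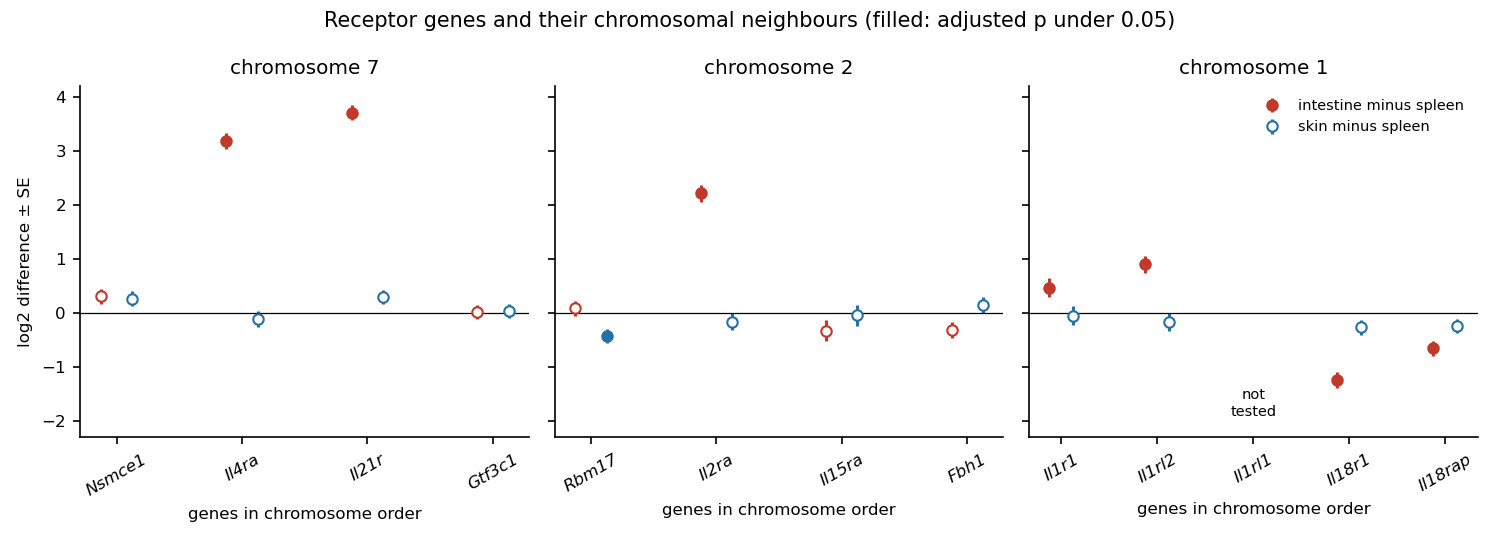
Log2 difference ± standard error of neighbouring genes in their order on chromosomes 7, 2 and 1, for intestine minus spleen and skin minus spleen (filled symbols, adjusted p under 0.05). The intestine minus spleen differences reach 3.19 and 3.71 for Il4ra and Il21r, while Nsmce1 and Gtf3c1 beside them are at 0.31 and 0.02, and Il18r1 and Il18rap are both below 0.

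The shared chains differed less. Il2rg, the common gamma chain itself, had 919 and 922 on the intestine arrays, 944 and 947 on the skin arrays and 984 and 919 on the spleen arrays. By deposited signal the spleen arrays spanned the range of both other tissues, while after normalization both skin arrays lay above both spleen arrays. The intestine minus spleen difference was 0.08 ± 0.13 (adjusted p = 0.624, 95% interval -0.21 to 0.38). Skin minus spleen was 0.09 ± 0.13 (adjusted p = 0.621) and intestine minus skin -0.01 ± 0.13 (adjusted p = 0.953). The probes of Il2rg did not give the same picture. The dimmer Il2rg probe had 426 and 451 on the intestine arrays, 241 and 253 on the skin arrays and 221 and 243 on the spleen arrays, and was higher in intestine than in skin (0.86 ± 0.14, adjusted p = 0.000907) and than in spleen (1.19 ± 0.14, adjusted p = 9.68e-05). The brighter probe also passed for intestine minus spleen with median scaling (0.51, adjusted p = 0.0109), and its sign there turned with the deposited scaling alone (-0.05).

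Il2rb, the beta chain CD122 that signals for IL-2 and IL-15, had 588 and 861 on the intestine arrays, 682 and 708 on the skin arrays and 506 and 619.6 on the spleen arrays. By deposited signal skin lay within the range of intestine and above spleen, and the lower intestine array lay below the higher spleen array. After normalization both intestine arrays lay above both spleen arrays. Intestine minus spleen was 0.53 ± 0.20 (adjusted p = 0.0509) and skin minus spleen 0.48 ± 0.20 (adjusted p = 0.106), while intestine minus skin was 0.05 ± 0.20 (adjusted p = 0.86). With the slide as a block both differences from spleen passed (adjusted p = 0.0184 for intestine and 0.0483 for skin), and they had the same sign on both slides.

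The IL-12 receptor chains were ordered differently. Il12rb2, the inducible signalling chain that recruits STAT4, had 260.5 and 240.3 on the intestine arrays, 45.9 and 41.2 on the skin arrays and 104 and 88.1 on the spleen arrays, with no overlap. Intestine was 4.82-fold above skin (2.27 ± 0.14, adjusted p = 2.57e-06) and 3.10-fold above spleen (1.63 ± 0.14, adjusted p = 1.44e-05), and skin 1.55-fold below spleen (-0.64 ± 0.14, adjusted p = 0.0141). The order of Il12rb2 over the tissues, intestine above spleen above skin, was that of Il7r. The call between skin and spleen ended without any 1 of the skin or spleen arrays (adjusted p = 0.0543 to 0.165) and with an offset of 1 (0.0514).

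Il12rb1, the chain that IL-12 and IL-23 receptors share, had 262 and 309 on the intestine arrays, 239.5 and 235 on the skin arrays and 197 and 174 on the spleen arrays. Intestine was 1.93-fold above spleen (0.95 ± 0.15, adjusted p = 0.000548) and skin 1.5-fold above spleen (0.59 ± 0.15, adjusted p = 0.0209), with spleen the lowest tissue. Intestine and skin did not differ beyond the test (0.36 ± 0.15, adjusted p = 0.0813, 95% interval 0.03 to 0.68). With the deposited scaling alone the intestine minus spleen difference was 0.58. The second Il12rb1 probe gave 0.77 for intestine minus spleen and 0.55 for skin minus spleen, both past the test. Its call for skin minus spleen held in 9 of 16 alternatives, with values from 0.30 to 0.70. It ended, among others, with an offset of 1 (adjusted p = 0.0522), the deposited scaling alone (0.113) and no filter (0.0516). The skin call of the brighter probe ended without any 1 of the skin or spleen arrays (adjusted p = 0.0587 to 0.187), with an offset of 1 (0.0765) and with the deposited scaling alone (0.0968). Il23r, the partner of Il12rb1 for IL-23 and the chromosome 6 neighbour of Il12rb2, was detected on none of the 6 arrays.

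By its brightest probe Il18r1 was lower in intestine than in both other tissues, the only one of the 10 genes for which that probe was. That probe had 917 and 957 on the intestine arrays, 2019 and 1826 on the skin arrays and 2433 and 2189.9 on the spleen arrays, so that the tissues did not overlap. Intestine was 1.97-fold below skin (-0.98 ± 0.14, adjusted p = 0.000548) and 2.37-fold below spleen (-1.24 ± 0.14, adjusted p = 9.69e-05). Skin minus spleen was -0.27 ± 0.14 (adjusted p = 0.193), a difference that turned sign with median scaling (0.05).

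The 3 Il18r1 probes disagreed. Between intestine and skin neither of the 2 dimmer probes passed (-0.13 ± 0.14, adjusted p = 0.515, and -0.16 ± 0.13, adjusted p = 0.368). The second of these was higher in skin than in spleen (0.57 ± 0.13, adjusted p = 0.0163), a call that held in 11 of 16 alternatives. One dim probe was also lower in intestine than in spleen (-0.49 ± 0.14, adjusted p = 0.0153), with 20.6 and 20.9 in intestine, 25.9 and 30.2 in skin and 55.4 and 47.2 in spleen. The other had 109 and 99.9 in intestine, 136 and 133 in skin and 109 and 102 in spleen, and its intestine minus spleen difference was 0.41 ± 0.13 (adjusted p = 0.0281). With the deposited scaling alone that value was -0.01 (adjusted p = 0.953), and the call also ended with an offset of 1 (0.0583), with no filter (0.084) and without intestine replicate 1 (0.0643), spleen replicate 1 (0.133) or spleen replicate 2 (0.185). The call of the dim probe that was lower ended without spleen replicate 1 (0.164) or spleen replicate 2 (0.0657). Il18rap, the second chain of the IL-18 receptor and the chromosome 1 neighbour of Il18r1, had 341 and 351 in intestine, 503 and 482 in skin and 633 and 677 in spleen. Intestine was lower than skin (-0.41 ± 0.14, adjusted p = 0.0361) and than spleen (-0.66 ± 0.14, adjusted p = 0.00305) for Il18rap, although both calls ended with median scaling (-0.25 against skin and -0.34 against spleen). Il1rl1, the IL-33 receptor gene on the other side of Il18r1, was detected on 1 of the 6 arrays and was not tested. Il1rl2, the IL-36 receptor gene beyond Il1rl1, was higher in intestine than in spleen (0.90 ± 0.17, adjusted p = 0.00161).

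The genes whose pattern over the 6 arrays lay closest to a member were found among 13455 genes by the root mean square distance of log2 levels after centring each gene. Cd83, a membrane protein of activated lymphocytes and dendritic cells, was nearest to Il21r, at 0.0764, followed by Traf4, at 0.123. Trf, the transferrin gene, and Lilrb4a, an inhibitory receptor gene, were nearest to Il4ra, at 0.167 and 0.169. Bpnt1 and Jmy were nearest to Il2ra, at 0.0542 and 0.061. A930001A20Rik was nearest to Il12rb2, at 0.0817, with Serpinb6b at 0.108, and it was second to Il7r, at 0.147, after Gstm5, at 0.123. For Il18r1 the nearest were 2010004M13Rik and Leprot, at 0.0381 and 0.0454. The distance was 0.196 between Il7r and Il12rb2 and 0.260 between Il4ra and Il21r. These are descriptions of 6 arrays from 3 tissues, in which any gene that differs mainly by tissue can lie close to another.

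Transcripts of the ligands were mostly faint. Of 14 ligand genes 5 entered the test, and Il9, Il21, Il23a, Il27, Ebi3 and Tslp were detected on none of the arrays. Between intestine and spleen 1 of the 5 was higher and 0 were lower. Il4, whose product binds the chain encoded by Il4ra, had 10.5 and 14.3 in intestine, 5.69 and 7.99 in skin and 3.04 and 2.72 in spleen, and was at least 1.44-fold above spleen (0.64 ± 0.14, adjusted p = 0.00362). Il4 entered the test through the intestine arrays alone, so its p-value is no independent test of the direction. Il15 had 63.2 and 43.9 in intestine, 52.0 and 48.1 in skin and 115 and 101 in spleen, and was lower in skin than in spleen (-0.63 ± 0.16, adjusted p = 0.0232). Il7, the ligand of the chain encoded by Il7r, had 6.59 and 10.5 in intestine, 21.2 and 12.4 in skin and 5.74 and 3.10 in spleen. It was higher in skin than in spleen (0.62 ± 0.17, adjusted p = 0.0274), but its other probe gave -0.42. Il2 was detected on all 6 arrays, between 17.1 and 34.0, and did not pass in any comparison.

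Other cytokine receptor chains went both ways. Of 34 listed, 18 entered the test, and in intestine 6 were higher than in spleen and 8 lower, with a median of -0.12. Over all probes 19.9% were higher and 27.6% lower in intestine than in spleen, and 10.8% higher and 12.1% lower in skin. Those shares also stand beside the counts of the lists that follow. Both chains of the IL-10 receptor were lower in intestine, Il10ra at 113 and 103 against 432 and 468 in spleen (-1.56 ± 0.14, adjusted p = 2.16e-05) and Il10rb at 71.9 and 76.5 against 369.8 and 326 (-1.65 ± 0.14, adjusted p = 1.21e-05). Ifngr1, the ligand-binding chain for interferon-gamma, was higher, at 2131 and 1495 in intestine against 729 and 642 in spleen (1.46 ± 0.17, adjusted p = 0.000115). Il27ra, the IL-27 receptor chain, was higher by 0.59 ± 0.15 (adjusted p = 0.0101), a call that ended with the deposited scaling alone (0.21). With the deposited scaling alone the split of the 18 was 1 higher and 8 lower, and with median scaling 7 higher and 6 lower. In skin only Il3ra of the 18 passed, higher than in spleen (0.96 ± 0.13, adjusted p = 0.00183). The deposited scaling alone put 2 of the 18 higher in skin and 3 lower.

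Of the kinases and factors that carry these signals, 10 were tested, and 5 were higher and 2 lower in intestine than in spleen. Jak1, which serves all gamma chain receptors, had 97.6 and 78.0 in intestine, 147 and 138 in skin and 296 and 216 in spleen, and was lower in intestine than in spleen (-0.98 ± 0.18, adjusted p = 0.00142). Jak3, which binds the gamma chain, was higher (0.64 ± 0.20, adjusted p = 0.0225), but the difference was 0.27 with the deposited scaling alone (adjusted p = 0.25). Jak2 had 1598 and 1015 in intestine against 307 and 311 in spleen (2.20 ± 0.18, adjusted p = 8.99e-06), while its other probe gave 0.40. These 3 kinases thus did not move as a group.

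Stat3, the main factor behind IL-21 signals, had 3511 and 3929.7 in intestine, 739.8 and 870.5 in skin and 1056 and 959 in spleen (1.90 ± 0.14 for intestine minus spleen, adjusted p = 6.9e-06). Stat5a, a factor of the IL-2, IL-7 and IL-15 receptors, was higher in intestine than in spleen (0.87 ± 0.14, adjusted p = 0.000764), and Stat5b was detected on none of the 6 arrays. Tyk2, which binds the IL-12 receptor, was lower (-0.80 ± 0.14, adjusted p = 0.00117). Stat4, the factor of the IL-12 receptor, was higher (0.53 ± 0.14, adjusted p = 0.00921), with its other probes on either side of that value. With the deposited scaling alone the split was 4 higher and 4 lower. In skin 0 of the 10 passed against spleen in the limma fit, and 1 had an unadjusted p under 0.05. The deposited scaling alone put 3 of the 10 lower in skin and 0 higher.

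Feedback inhibitors of these pathways were tested for 13 genes, of which 6 were higher and 2 lower in intestine than in spleen, and 4 higher and 1 lower in skin than in spleen. The splits were 6 higher and 4 lower in intestine, and 2 higher and 4 lower in skin, with the deposited scaling alone, which turned the balance in skin. Cish, induced by STAT5, had 1638 and 1518 in intestine, 187 and 191 in skin and 126 and 168 in spleen, and was higher than in spleen in skin as well (0.60 ± 0.15, adjusted p = 0.0237), a call that ended with the deposited scaling alone (0.34). Socs3 had 1637 and 895 in intestine, 583 and 621 in skin and 184 and 254 in spleen, so that skin lay between the other tissues (1.67 ± 0.23 for skin minus spleen, adjusted p = 0.00193). Socs2 had 1771 and 1565 in intestine, 1086 and 1034 in skin and 281 and 324 in spleen (1.97 ± 0.14 for skin minus spleen, adjusted p = 7.06e-05), although its other probe gave 0.16. Pias3, an inhibitor of STAT3, was lower in intestine than in spleen (-1.52 ± 0.17, adjusted p = 8.47e-05), although 1 of its other probes had the opposite sign. Pias1, another gene of the PIAS family, was lower in intestine (-1.02 ± 0.16, adjusted p = 0.000617) and in skin (-0.63 ± 0.16, adjusted p = 0.0221) than in spleen. Socs1 was higher in intestine than in skin (1.46 ± 0.18, adjusted p = 0.000211). Socs7, counted among those higher in intestine than in spleen, entered the test through the intestine arrays alone.

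On the IL-18 side 17 signalling genes were tested, and 8 were higher and 2 lower in intestine than in spleen. The brightest Il18r1 probe was lower in that comparison. Rel, an NF-kappaB subunit, had 384 and 219.8 in intestine, 17.7 and 21.4 in skin and 10.4 and 12.2 in spleen. Nfkb1 had 2984 and 2449.7 in intestine, 456 and 477 in skin and 529 and 475 in spleen (2.50 ± 0.14 for intestine minus spleen, adjusted p = 1.27e-06). Nfkb2 was higher in intestine than in skin (2.69 ± 0.13, adjusted p = 7.01e-07). Irak4, the kinase next to MyD88, was lower in intestine (-0.95 ± 0.16, adjusted p = 0.000834), but its other probe gave -0.06, and Tab1 was lower too (-0.66 ± 0.18, adjusted p = 0.0119). With the deposited scaling alone 8 were higher and 8 lower. In skin 0 of the 17 passed against spleen in the limma fit, and 4 had an unadjusted p under 0.05, all lower. In skin 7 of the 17 were lower and 0 higher with the deposited scaling alone.

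Target genes were read in 2 lists. Of 12 genes that respond to IL-12 and IL-18, 9 were higher and 0 lower in intestine than in spleen, with a median of 1.29, and 4 were higher and 2 lower in skin than in spleen. Ifng, the interferon-gamma gene, had 3829 and 2762 in intestine, 2036 and 1886 in skin and 960.5 and 1471 in spleen, and differed in all 3 comparisons (1.47 ± 0.22 for intestine minus spleen, adjusted p = 0.000486, 0.77 ± 0.22 for skin minus spleen, adjusted p = 0.0349, and 0.70 ± 0.22 for intestine minus skin, adjusted p = 0.0311). Gadd45b had 805 and 514 in intestine, 29.2 and 28.6 in skin and 73.3 and 77.5 in spleen, so that skin was lower than spleen (-0.76 ± 0.17, adjusted p = 0.0166) and intestine higher (3.14 ± 0.17, adjusted p = 1.07e-06). Csf2, which encodes GM-CSF, had 724 and 732 in intestine, 69.2 and 62.2 in skin and 121 and 130.1 in spleen, the order seen for Il7r and Il12rb2. Skin was lower than spleen for Csf2 as well (-0.53 ± 0.14, adjusted p = 0.026). Ccl4, a chemokine gene, was higher in skin than in spleen (0.91 ± 0.15, adjusted p = 0.00487) and lower in intestine than in skin (-0.59 ± 0.15, adjusted p = 0.0122).

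Of 11 survival and growth targets of STAT5, 5 were higher and 5 lower in intestine than in spleen. Pim1, a kinase gene, had 992 and 659 in intestine, 186 and 183 in skin and 180.2 and 162 in spleen (2.42 ± 0.17 for intestine minus spleen, adjusted p = 4.29e-06), and Myc was higher by 1.94 ± 0.25 (adjusted p = 0.000212). The cyclin gene Ccnd3 was lower (-1.17 ± 0.15, adjusted p = 0.000195), and so was the perforin gene Prf1 (-1.22 ± 0.13, adjusted p = 6.37e-05). The list therefore did not move in 1 direction. In skin 2 were higher and 2 lower than in spleen, with Pim2 at 1.05 ± 0.14 (adjusted p = 0.00185), Osm, the oncostatin M gene, at 0.91 ± 0.14 (adjusted p = 0.00383), the survival gene Mcl1 at -0.55 ± 0.13 (adjusted p = 0.0202) and Bcl2l11, a death-promoting BCL2 relative, at -0.70 ± 0.13 (adjusted p = 0.0086), where its other probe gave 0.15.

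**Figure D4:**
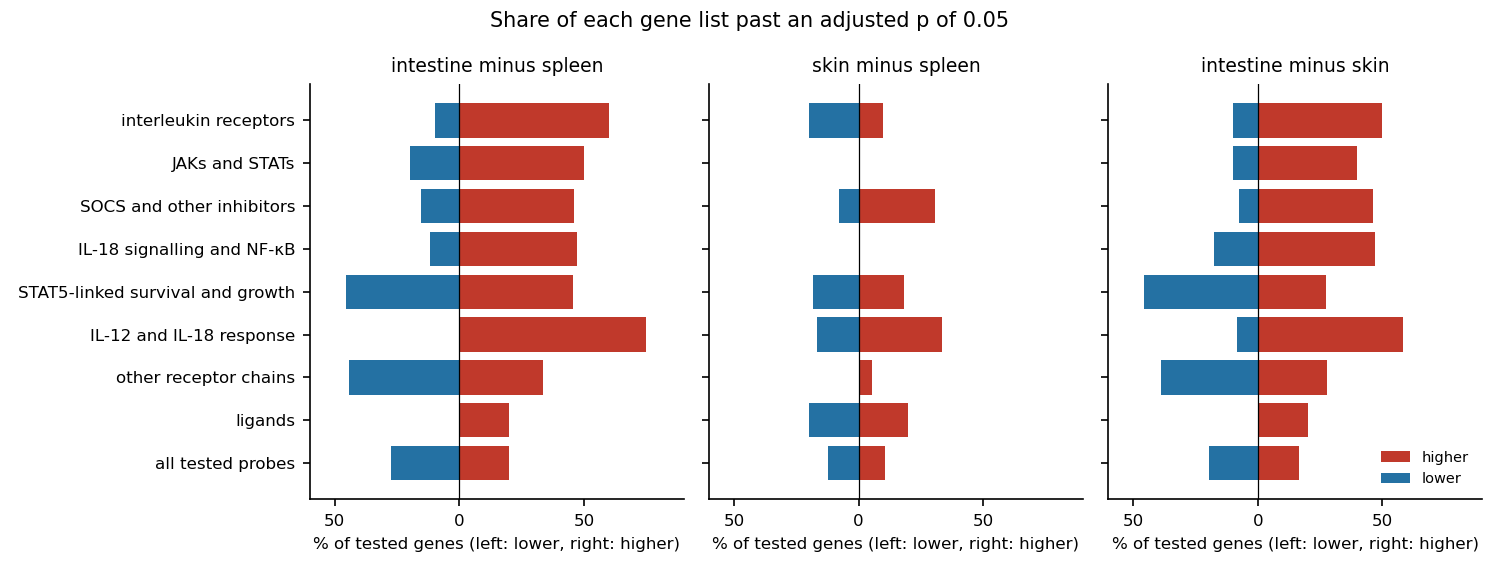
Share of tested genes (percent, horizontal axis) that were higher or lower at an adjusted p under 0.05 in each list of receptors, ligands, signalling genes and targets, for the 3 comparisons, with the share of all 18583 probes at the bottom. The 10 receptor genes have 6 higher and 1 lower for intestine minus spleen, where 19.9% of all probes were higher and 27.6% lower.

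Markers of cell types moved with the same comparisons. Of 9 tested NK cell markers 8 were lower and 0 higher in intestine than in spleen, and their summed signal was 7730 and 8293 in intestine, 13187 and 13939 in skin and 17731 and 17868 in spleen. The ILC3 markers summed to 1556 and 1480 in intestine, 150 and 132 in skin and 308 and 317 in spleen, most of it from Kit, which had 1404 and 1370.3 in intestine, with Il23r, Il22, Il17f, Cxcr5 and Ccr6 detected on no array. The ILC1 and residency markers, with 5 of 6 tested higher in intestine and 0 lower, summed to 14025 and 13289 in intestine, 3927 and 4051 in skin and 1338 and 2059 in spleen. Most of that sum came from Cd69 (6791 and 3794 in intestine) and Rgs1 (6837 and 9105), so its tissue order was mainly theirs. In skin 2 of the 6 were higher and 1 lower than in spleen. Cxcr6 had 12.4 and 8.35 in skin against 30.4 and 25.1 in spleen, and Cd200r1 was detected on no array. The tissue order of the ILC3 sum, with skin lowest, was mainly that of Kit. Of 4 tested ILC3 markers 4 were higher in intestine than in spleen, where 19.9% of all probes were higher. In skin 1 was higher and 1 lower than in spleen. Tnfsf11, 1 of the 4, entered the test through the intestine arrays alone, so the filter came close to setting its direction. Il1r1, another of them, passed against spleen just under the threshold (0.47 ± 0.18, adjusted p = 0.049997 from limma). Ahr had 20.9 and 18.0 in skin, above 11.3 and 16.9 in intestine and 6.50 and 6.66 in spleen.

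Of 4 tested ILC2 markers 2 were higher in intestine than in spleen (Areg by 3.66 ± 0.14 and Bcl11b by 1.14 ± 0.14, adjusted p = 2.02e-07 and 0.000132) and 1 was lower (Klrg1 by -2.21 ± 0.14, adjusted p = 1.82e-06), with a median of 0.63. Areg entered the test through the intestine arrays alone, so its p-value is no independent test of the direction. Klrg1 had 128 and 123 in intestine, 629 and 562 in skin and 778 and 792 in spleen, and most of the difference in the summed signal lay in it. The ILC2 markers summed to 936 and 738 in intestine, 1028 and 910.2 in skin and 1256 and 1227 in spleen, with Il17rb and Il5 detected on no array. T cell markers had 5 of 9 tested higher and 2 lower in intestine than in spleen. They summed to 1570.0 and 1741 in intestine, 1003 and 1086 in skin and 1239.5 and 1128 in spleen. Cd3e, Cd4, Cd5 and Cd6 were detected on no array, but Cd3d, Cd3g, Cd247, Cd8b1, Cd28 and Icos on all 6. Cd3g had 312 and 597 in intestine against 109 and 81.4 in spleen, and Cd247 had 148 and 111 against 381 and 365. Macrophage, monocyte and dendritic cell markers had 7 of 10 tested lower in each of intestine and skin than in spleen. Of all probes, 27.6% were lower in intestine and 12.1% in skin. They summed to 296 and 265 in intestine, 478 and 469 in skin and 754 and 702 in spleen, with Csf1r, Cd14 and Fcgr1 detected on no array. Most of the sum came from Itgax (206 and 175 in intestine, 286 and 280 in skin, 356 and 282 in spleen) and Cx3cr1 (5.32 and 13.7, 103 and 75.1, 217 and 207). Lyz2, Adgre1, Mrc1, C1qa, C1qb and C1qc were detected in spleen alone. They entered the test through the spleen arrays alone, so the count of lower genes is no independent test of the direction. Epithelial and stromal markers summed to 685 and 865 in intestine, 269 and 269 in skin and 248 and 249 in spleen, most of it from Pecam1, an endothelial gene that leukocytes also express, at 550.4 and 728 in intestine, 178 and 216 in skin and 222 and 219 in spleen. Of 6 tested, 2 were higher and 1 lower in intestine than in spleen, with Epcam, Krt8 and Krt19 detected on no array. B cell markers summed to 27.1 and 59.5 in intestine, 29.2 and 22.1 in skin and 34.6 and 25.2 in spleen, with Cd79a, Pax5 and Blk among those detected on no array. The neutrophil, mast cell and basophil markers had 1 tested gene and summed to 11.9 and 30.7 in intestine, 22.3 and 25.5 in skin and 8.18 and 125 in spleen. Among the other markers, Gzma, Cd22, Krt10 and Pdgfra entered the test through the spleen arrays alone, and Cd8a and Cdh1 through the intestine arrays alone. The counts of higher and lower genes in their lists share that limit. The part of these cell types in the receptor differences was not tested. In sorted samples measured as a whole, fewer cells of a type and less RNA per cell cannot be told apart.

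The scaling moved the balance of calls over all probes. Median scaling moved the median intestine minus spleen difference of all probes to 0.07 and the deposited scaling alone to -0.26, against -0.07, and the share of called probes that were higher was 56.6% and 24.7%, against 41.9%. For skin minus spleen the shares were 65.3% with median scaling and 30.7% with the deposited scaling, against 47.0%, and for intestine minus skin 51.4% and 33.6%, against 46.0%. The 7 receptor genes called between intestine and spleen and the 6 called between intestine and skin kept their sign and their call under all 17 alternatives, except that Il2ra could not be tested when detection on all 6 arrays was asked for. The sizes of the dim genes depended on the offset added before the log. For intestine minus spleen Il2ra ran from 1.21 to 4.22, Il4ra from 2.27 to 4.10 and Il21r from 2.83 to 4.48.

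**Figure D5:**
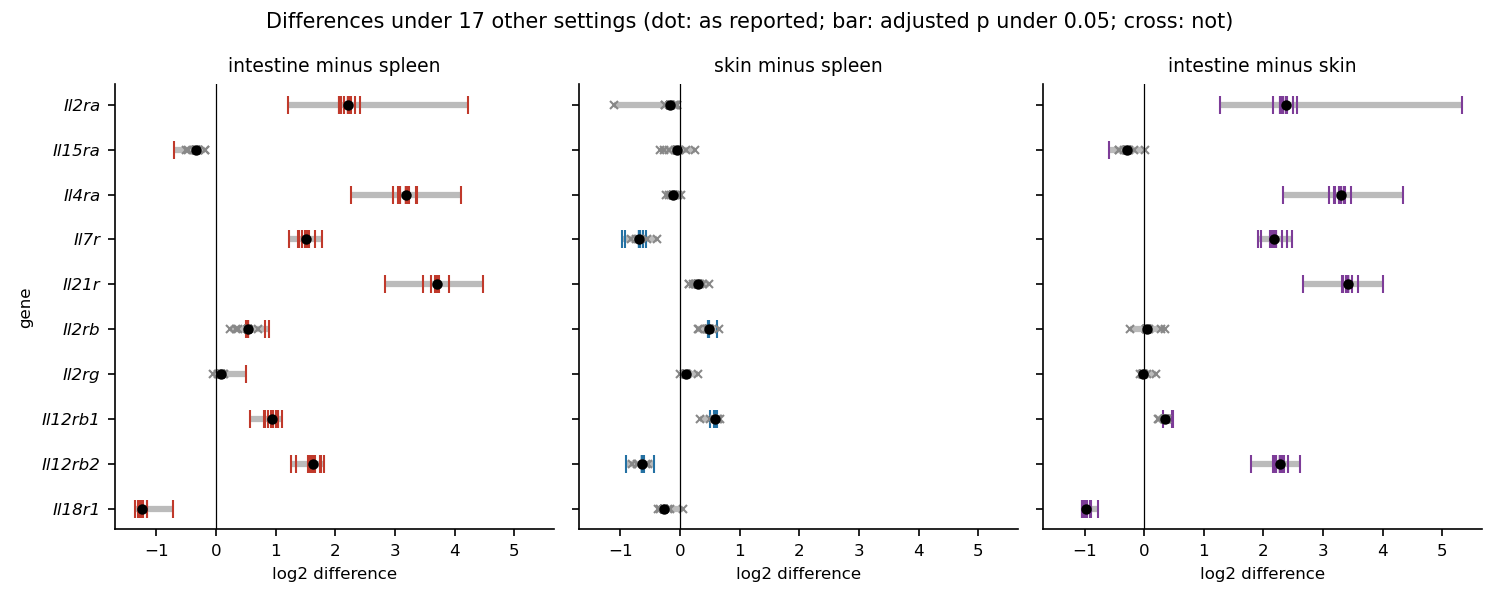
Log2 difference of the brightest probe of each receptor gene under the reported setting and under up to 17 alternative settings, for the 3 comparisons. Dots are the reported values, ticks alternatives with an adjusted p under 0.05, crosses the other alternatives, and grey bars their range. Il21r, Il4ra, Il2ra, Il7r and Il12rb2 stay right of 0 in both comparisons with intestine, from 1.21 upwards for intestine minus spleen, and the skin minus spleen differences of Il7r and Il12rb2 stay left of 0.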

How the data were processed

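RNA from sorted cells was isolated with the RNeasy Micro Kit, labelled as biotinylated cRNA with an Illumina TotalPrep kit and hybridised to Illumina mouse BeadChips, per the labels' protocols. BeadStudio 1.5.1.3 is listed in the submitters' processing notes. The deposited tables hold 1 signal intensity and 1 detection p-value per probe. The values show that the intensities were background-subtracted and scaled to an equal mean on every array, and the series-wide deposited table holds the same signals before scaling. The method of background estimation is not stated in these sources. The number of arrays limits the precision.

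From there, log2(signal + 16) was quantile normalized over all probes. Probes were kept where both arrays of some tissue had a detection p under 0.01, and limma 3.58.1 in R 4.3.3 was fitted on all 6 arrays with tissue means, with Benjamini-Hochberg adjustment. The fit was tested on simulated data. Fold bounds for a probe detected on no array of a tissue use the lowest level of a detected probe there. Same-numbered samples share a slide, per the file headers. Their deviations from the tissue means correlated at 0.143 for intestine and spleen, 0.107 for intestine and skin, and 0.193 for skin and spleen, so the slide was fitted as a block in an alternative. Of 44916 probes with a symbol, 20147 matched a current RefSeq symbol and 12968 an older one.

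The members, the gene lists and the rule for named genes (all members, and in each list the genes with the largest called differences, with marker lists given as sums) were chosen with earlier results of these data known. The alternatives were other offsets, scalings and detection filters, 1 probe per gene, the slide block, the 2 tissues alone and each array left out.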

Additional observations from a re-analysis of the deposited data

How the results depend on the processing

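The fit was repeated under 17 alternatives. Leaving out 1 array assumes that the lone array of a tissue varies like those of the other tissues. Between intestine and spleen the number of probes called was 8822 and lay between 5040 (without spleen replicate 1) and 9274 with 1 array left out, with 5225 without spleen replicate 2. Between skin and spleen it was 4253, and it was 1783 with an offset of 1, 2277 with no filter, 6458 with only those tissues fitted, and between 573 and 6280 with 1 array left out. The lowest of these came without spleen replicate 1, and the others were 596 without spleen replicate 2, 1004 without skin replicate 1 and 2532 without skin replicate 2. Of the 3 receptor genes called there, 0 were called by limma with an offset of 1, where 2 were higher and 2 lower at an unadjusted p under 0.05, and 0 to 4 with 1 array left out. Il2rb passed between intestine and spleen in 7 alternatives and between skin and spleen in 5. Il12rb1 passed between intestine and skin in 3, and Il15ra there without skin replicate 1 (-0.59, adjusted p = 0.0496). The intestine minus spleen value of 1 Il18r1 probe changed sign with the deposited scaling alone (-0.0106), and the cause was not tested. With the replicate block, 9483 probes were called between intestine and spleen, 5114 between skin and spleen and 7218 between intestine and skin. The block changed the call of no receptor gene other than Il2rb, giving 8, 4 and 6 genes called. Dim probes near background, such as those of Il2ra, Il15ra and Il4ra in skin and spleen, limit what can be told between those tissues.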

Other observations

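A further probe of the Il12rb2 locus carries the symbol A930027I18Rik, which RefSeq lists as an older name of that gene. It was detected on 1 of the 6 arrays and was not tested. Rag2, the gene removed in all of the mice, had signals of 7.84 and 13.2 in intestine, 0.341 and 9.50 in skin and 2.88 and 6.81 in spleen. Whether its probe lies in the deleted part is not known here, so these values check nothing about the strain.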
